A study of Mus musculus with 6 samples.

Results

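10 genes of the circadian clock were examined in neuron-enriched mouse dorsal root ganglion (DRG) cells: the period genes Per1, Per2 and Per3, the cryptochrome genes Cry1 and Cry2, Clock, the nuclear receptor genes Nr1d1 and Nr1d2, and the clock outputs Dbp and Ciart. They are 10 of 54309 genes in the deposited table, chosen by name. The table holds 6 RNA-seq libraries from ganglia of lumbar levels 4 to 6 of male C57bl/6 mice aged 8-10 weeks, 3 from animals given AAV-Leptin-GFP (a viral vector carrying leptin and GFP) and 3 from animals given AAV-GFP (the vector with GFP alone). Both groups received the virus in both sciatic nerves 4 weeks before a dorsal column axotomy, a cut of the central axon branches in the spinal cord, and both were killed 24 hours after it. Every library therefore carries the injury, GFP and the enzymatic dissociation with an albumin gradient that enriched neurons. The labels give no vector promoter, no time of day for the injection, the injury or the dissection, and no number of animals per library, so p-values measure only how these 6 samples scatter, which may in part be technical. In tissue this mixed, fewer cells of a type and less RNA per cell cannot be told apart.

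In the mammalian clock, the proteins CLOCK and ARNTL (BMAL1) bind E-box sequences and switch on the Per, Cry, Nr1d and Dbp genes. PER and CRY proteins return to inhibit CLOCK and ARNTL, and the NR1D receptors (REV-ERB alpha and beta) repress Arntl and its relative Npas2 through other sites. Outputs such as Dbp, Nr1d1, Ciart and Per3 therefore peak in mouse peripheral tissues when Arntl is low. A shift in clock phase moves these outputs and Arntl in opposite directions over most of the day. Per1 and Per2 are also induced within the day by neuronal activity, growth factors and glucocorticoids. The comparison asks whether the AAV-Leptin-GFP and AAV-GFP libraries stood at the same point of this cycle.

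The proximal promoters of 4 members are shown because they hold letters that match known clock elements and because these genes gave different results. Each sequence is the 250 bases before the RefSeq gene start on GRCm38.p6, written on the gene's own strand. Capitals mark the E-box CACGTG, its variant CACGTT on either strand, and the D-box TTATGTAA, the site of Dbp and its relatives. The windows lie at chr11:98775378-98775627 (minus strand) for Nr1d1, chr11:69098699-69098948 (plus strand) for Per1, chr4:151044666-151044915 (minus strand) for Per3 and chr3:95882229-95882478 (minus strand) for Ciart.
Nr1d1: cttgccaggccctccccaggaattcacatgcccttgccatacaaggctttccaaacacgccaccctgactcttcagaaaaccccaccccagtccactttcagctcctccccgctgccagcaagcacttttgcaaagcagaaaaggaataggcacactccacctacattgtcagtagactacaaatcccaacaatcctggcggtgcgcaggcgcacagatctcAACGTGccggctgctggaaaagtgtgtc
Per1: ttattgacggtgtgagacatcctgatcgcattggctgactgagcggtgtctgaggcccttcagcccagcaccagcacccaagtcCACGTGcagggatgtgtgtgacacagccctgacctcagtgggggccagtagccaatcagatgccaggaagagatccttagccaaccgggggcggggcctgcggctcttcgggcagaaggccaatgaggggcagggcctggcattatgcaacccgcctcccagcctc
Per3: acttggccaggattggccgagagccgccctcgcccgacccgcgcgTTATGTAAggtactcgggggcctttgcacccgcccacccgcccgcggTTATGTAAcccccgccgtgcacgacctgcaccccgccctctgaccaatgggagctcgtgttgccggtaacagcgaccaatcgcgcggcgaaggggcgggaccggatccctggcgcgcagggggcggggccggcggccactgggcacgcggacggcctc
Ciart: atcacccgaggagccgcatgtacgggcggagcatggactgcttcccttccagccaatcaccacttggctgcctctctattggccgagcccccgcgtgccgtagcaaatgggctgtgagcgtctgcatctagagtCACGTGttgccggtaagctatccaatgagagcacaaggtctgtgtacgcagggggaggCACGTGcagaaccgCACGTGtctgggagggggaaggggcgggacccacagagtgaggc

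The RefSeq table held 12 windows for 9 of the 10 members, all but Per2. The E-box CACGTG occurred in 6.02% of 32851 windows of all genes, and in those of Per1 (166 bases before the start, in the first of 2 windows), Cry1 (60 bases) and Ciart (116, 58 and 44 bases). The variant CACGTT, searched on both strands, was found in 3.85% of all windows and in those of Nr1d1 (28 bases before the start), Cry1 and Cry2. The D-box TTATGTAA, present in 0.819% of all windows, occurred in Per3 alone among the members, at 205 and 158 bases. The AGGTCA core bound by NR1D receptors was in 14.0% of all windows and in those of Per1, Nr1d2 and 1 of 3 of Clock. The cyclic AMP element TGACGTCA, in 1.55% of all windows, was in none of the 12. The Dbp window held none of these sequences. Matches to letters are a description of these windows, not evidence of binding.

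**Figure D1:**
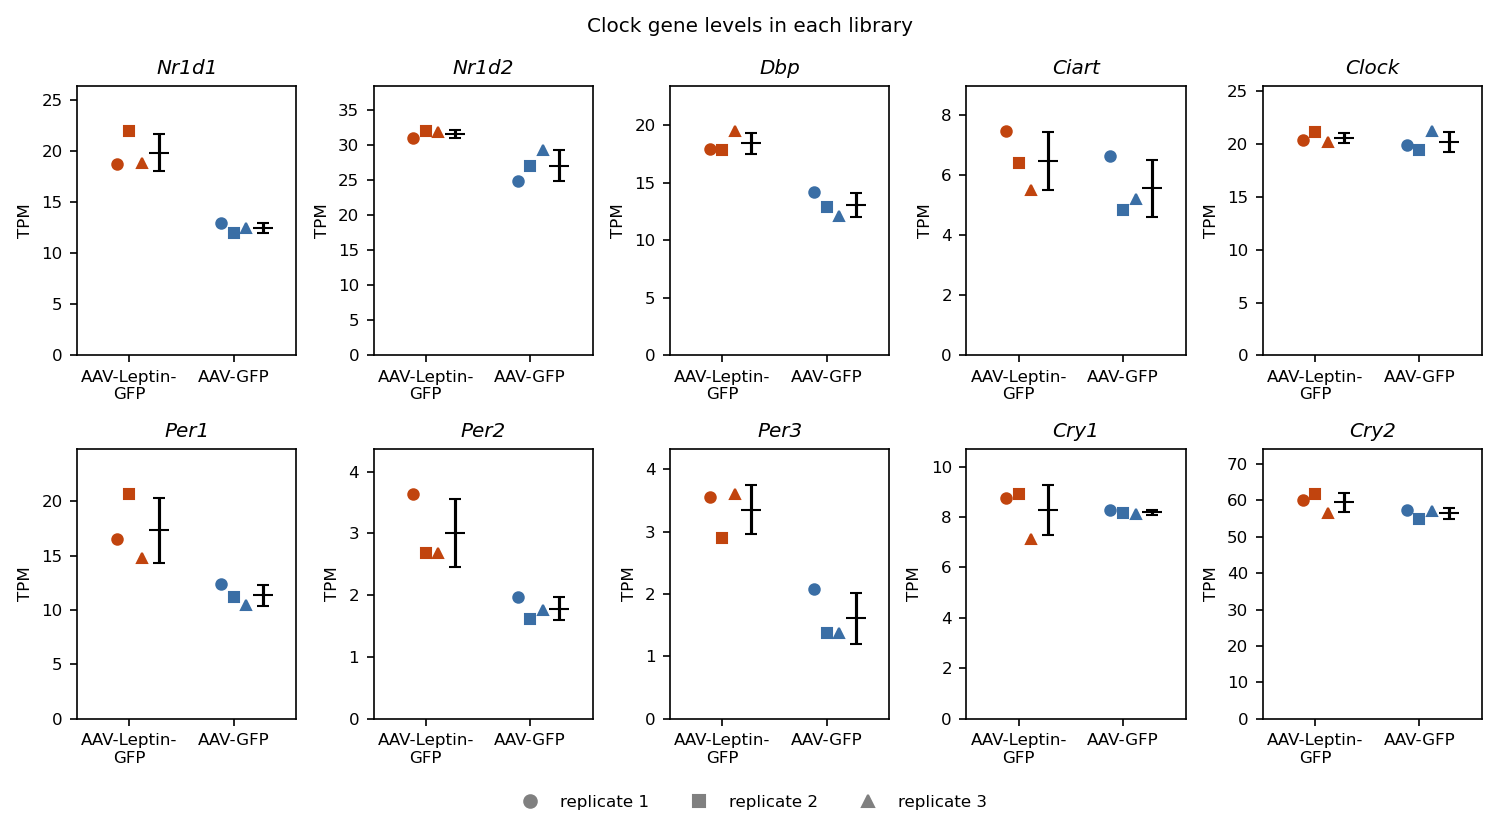
Level of each clock gene in TPM (vertical axis, from 0, own scale per gene) in the 3 AAV-Leptin-GFP libraries (left, orange) and the 3 AAV-GFP libraries (right, blue), with symbols for the replicate number and black bars for the mean and SD. The groups do not overlap for Nr1d1, Nr1d2, Dbp, Per1, Per2 and Per3, and overlap for Ciart, Clock, Cry1 and Cry2.

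With leptin, Nr1d1 and Dbp rose, by 0.63 and 0.47 on the log2(TPM + 1) scale. Per1, Per2, Per3 and Nr1d2 had higher values in every AAV-Leptin-GFP library than in any AAV-GFP library but did not pass the test over all genes, and Cry1, Cry2, Clock and Ciart had overlapping groups. Genes were tested with limma on log2(TPM + 1) of transcript sums, AAV-Leptin-GFP minus AAV-GFP, over the 15108 genes averaging 1 TPM or more, and called at a Benjamini-Hochberg adjusted p under 0.05. TPM is a length-corrected share of each library, so levels of different genes can be compared, but read depth is unknown. Of the 10 members, all were tested, 2 were called higher and none lower, where 1.54% of all tested genes were called higher and 0.0662% lower. Groups did not overlap, with leptin above, for 6 of 10 members and for 13.3% of all tested genes. At an unadjusted limma p under 0.05, 6 members were higher and none lower, against 11.3% and 8.19% of all tested genes. The median log2 fold change was 0.34 over the 10 members and -0.00016 over all tested genes.

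Nr1d1, which encodes the haem receptor REV-ERB alpha that represses Arntl (ENSMUSG00000020889, GRCm38 chromosome 11, 98767932 to 98775333), had 18.8, 22.0 and 18.8 TPM with leptin (replicates 1, 2 and 3, an order kept below), against 12.9, 12.0 and 12.5 TPM with GFP alone. The lowest AAV-Leptin-GFP library lay well above the highest AAV-GFP library. The means were 19.8 ± 1.83 and 12.5 ± 0.465 TPM (SD, n = 3 each), a ratio of 1.59 and a log2 fold change of 0.63 (SE 0.08, 95% interval 0.43 to 0.82, limma adjusted p = 0.0238). Its exons share 263 of 3077 bases with those of Thra, the thyroid hormone receptor alpha gene on the opposite strand. The libraries were made with a stranded kit, but no source used here says whether the counting used strand. Thra itself was at 235, 231 and 201 TPM with leptin and 240.4, 236 and 219 TPM with GFP alone (log2 fold change -0.06, limma adjusted p = 0.669).

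Dbp, a PAR bZIP transcription factor and direct CLOCK target (ENSMUSG00000059824, chromosome 7, 45705088 to 45710203), was at 17.9, 17.8 and 19.5 TPM in the AAV-Leptin-GFP libraries, against 14.2, 12.9 and 12.1 TPM in the AAV-GFP libraries. Its groups were separated by more than the range within either. The means were 18.4 ± 0.944 and 13.1 ± 1.06 TPM, a ratio of 1.41 and a log2 fold change of 0.47 (SE 0.08, 95% interval 0.27 to 0.66, limma adjusted p = 0.0458). Dbp shares 539 of 2993 exon bases with Sphk2, a sphingosine kinase gene on the opposite strand, which had a log2 fold change of -0.02 (limma adjusted p = 0.919). Both calls were lost without any 1 library other than AAV-GFP replicate 1. Without AAV-Leptin-GFP replicate 1, 2 or 3 the limma adjusted p of Nr1d1 was 0.112, 0.137 and 0.0756, and that of Dbp 0.132, 0.175 and 0.119. Without AAV-GFP replicate 2 or 3 it was 0.127 and 0.136 for Nr1d1 and 0.183 and 0.178 for Dbp, and without AAV-GFP replicate 1 both stayed called, at 0.0281 and 0.0345. The fold changes themselves ranged over these fits from 0.56 to 0.66 for Nr1d1 and from 0.42 to 0.52 for Dbp.

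Nr1d2, the paralog encoding REV-ERB beta (ENSMUSG00000021775, chromosome 14, 18204054 to 18239127), was the more abundant of the pair. It was at 31.0, 32.1 and 31.9 TPM with leptin, against 24.9, 27.0 and 29.3 TPM with GFP alone. The groups did not overlap, but the distance between them was 1.17 times on the means and the gene was not called (log2 fold change 0.22, SE 0.07, 95% interval 0.06 to 0.39, limma adjusted p = 0.153). Ciart (ENSMUSG00000038550, chromosome 3, 95878503 to 95882251), also called Chrono, encodes a repressor of CLOCK and ARNTL and had 3 E-boxes in the window printed above. Its values were 7.46, 6.41 and 5.51 TPM with leptin and 6.62, 4.84 and 5.20 TPM with GFP alone. These overlapped, and the fold change of 0.19 was not called (SE 0.15, 95% interval -0.15 to 0.53, limma adjusted p = 0.528).

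The 3 period genes, whose proteins form the inhibitory complex with the cryptochromes, all had higher values with leptin in every library, and none was called. Per1 (ENSMUSG00000020893, chromosome 11, 69095217 to 69109960) was at 16.5, 20.6 and 14.8 TPM in the AAV-Leptin-GFP libraries, against 12.4, 11.2 and 10.5 TPM in the AAV-GFP libraries. AAV-Leptin-GFP replicate 2 was the highest library, and without it the log2 fold change was 0.43, against 0.56 over all libraries (SE 0.13, 95% interval 0.26 to 0.86, limma adjusted p = 0.0776). Per3 (ENSMUSG00000028957, chromosome 4, 151003652 to 151044665), the period gene that a mouse clock can best do without, had the largest ratio of the 10 members, at 2.08. It stood at 3.55, 2.90 and 3.60 TPM with leptin, against 2.08, 1.38 and 1.37 TPM with GFP alone. The log2 fold change was 0.74 (SE 0.16, 95% interval 0.36 to 1.13, limma adjusted p = 0.0715), and without AAV-GFP replicate 1, the highest of its group, Per3 was called (0.87, limma adjusted p = 0.0456). Per2 (ENSMUSG00000055866, chromosome 1, 91415982 to 91459324) was at 3.63, 2.69 and 2.68 TPM with leptin, against 1.98, 1.62 and 1.75 TPM with GFP alone. Its log2 fold change was 0.52 (SE 0.15, 95% interval 0.16 to 0.87, limma adjusted p = 0.126). Per2 and Per3 were the least abundant members, so the added 1 TPM shrinks their fold changes most.

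The cryptochrome genes, which encode the main inhibitors of CLOCK and ARNTL, had overlapping groups and were not called. Cry1 (ENSMUSG00000020038, chromosome 10, 85131700 to 85185064) was at 8.78, 8.90 and 7.13 TPM with leptin and 8.30, 8.15 and 8.11 TPM with GFP alone, so that the AAV-Leptin-GFP libraries lay on both sides of the other group. Its log2 fold change was 0.0071 (SE 0.10, 95% interval -0.23 to 0.25, limma adjusted p = 0.982), an interval that includes the 0.22 measured for Nr1d2. Cry2 (ENSMUSG00000068742, chromosome 2, 92403646 to 92434043) was at 60.2, 61.7 and 56.4 TPM with leptin and 57.5, 54.8 and 57.1 TPM with GFP alone (0.07, SE 0.05, 95% interval -0.05 to 0.20, limma adjusted p = 0.511). Clock, the activator subunit (ENSMUSG00000029238, chromosome 5, 76209868 to 76304792), was at 20.4, 21.1 and 20.2 TPM with leptin and 19.9, 19.4 and 21.2 TPM with GFP alone (0.03, SE 0.06, 95% interval -0.12 to 0.18, limma adjusted p = 0.696). The upper bounds for Cry2 and Clock lay below the lower bounds for Nr1d1 and Dbp. The difference between these genes was not tested.

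**Figure D2:**
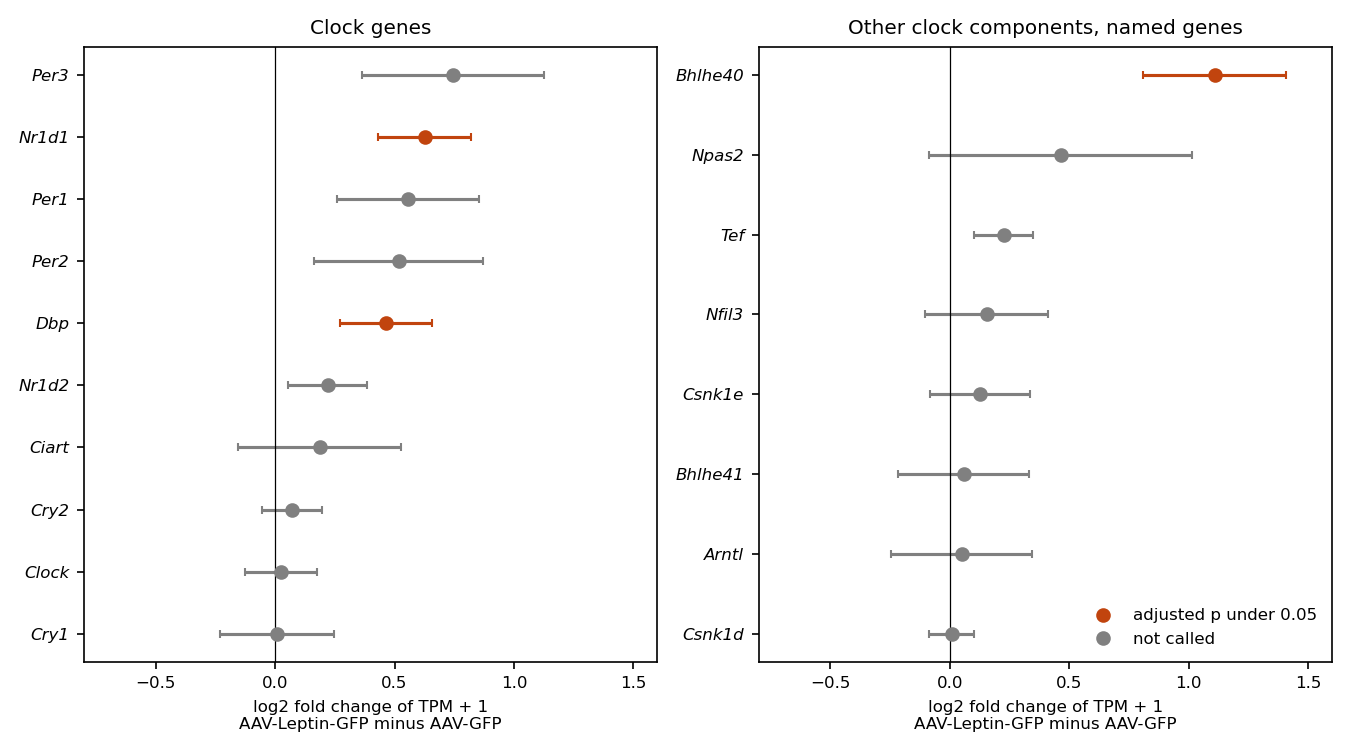
Log2 fold change of TPM + 1, AAV-Leptin-GFP minus AAV-GFP (horizontal axis), with its 95% interval from limma, for the 10 clock genes (left) and the 8 tested other clock components named in the text (right), with genes called at an adjusted p under 0.05 in orange. Nr1d1, Dbp and Bhlhe40 are the called genes, and the intervals of Per1, Per2, Per3, Nr1d2 and Tef lie above 0 without a call.

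The order of levels was nearly the same in both groups. Cry2 was the most abundant member, at 59.5 ± 2.73 TPM with leptin and 56.5 ± 1.45 TPM with GFP alone, followed by Nr1d2 and Clock. With leptin, Clock, Nr1d1, Dbp and Per1 formed a run in which each gene's range overlapped that of the next, from 20.6 ± 0.508 TPM for Clock to 17.3 ± 3.01 TPM for Per1. With GFP alone, Clock at 20.2 ± 0.947 TPM stood apart above Dbp (13.1 ± 1.06), Nr1d1 (12.5 ± 0.465) and Per1 (11.4 ± 0.973), which overlapped with their neighbours. Cry1 and Ciart came next in both groups, and their ranges overlapped with leptin but not with GFP alone. Per3 at 3.35 ± 0.389 TPM and Per2 at 3.0 ± 0.547 TPM were last with leptin, and Per2 at 1.78 ± 0.181 TPM and Per3 at 1.61 ± 0.410 TPM with GFP alone, with ranges that overlapped in each group.

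None of the genes that run against the outputs was called. Arntl, the partner of CLOCK that NR1D1 represses (ENSMUSG00000055116), was at 2.97, 2.83 and 2.99 TPM with leptin and 2.87, 2.45 and 3.11 TPM with GFP alone. The groups overlapped, and the log2 fold change was 0.05 (SE 0.13, 95% interval -0.25 to 0.34, limma adjusted p = 0.871). Npas2, which can replace CLOCK, was at 3.17, 3.60 and 2.04 TPM with leptin and 2.68, 1.30 and 1.64 TPM with GFP alone (0.46, SE 0.23, 95% interval -0.09 to 1.01, limma adjusted p = 0.331). Nfil3, the D-box repressor that opposes Dbp, was at 7.68, 6.91 and 6.24 TPM with leptin and 6.74, 5.90 and 5.74 TPM with GFP alone (0.16, SE 0.11, limma adjusted p = 0.490).

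Differences of log2(TPM + 1) between an output and Arntl within each library depend little on how libraries are scaled. Nr1d1 minus Arntl was 2.31, 2.58 and 2.31 in the AAV-Leptin-GFP libraries, against 1.85, 1.92 and 1.71 in the AAV-GFP libraries, and the groups did not overlap. Dbp minus Arntl was 2.25, 2.30 and 2.36 with leptin, against 1.97, 2.01 and 1.67 with GFP alone, again without overlap. Per3 minus Arntl was 0.20, 0.03 and 0.20 with leptin, against -0.33, -0.53 and -0.80 with GFP alone. Arntl itself had a log2 fold change of 0.05, so these separations largely repeat those of the output genes alone. The mean differences between groups were 0.58 for Nr1d1, 0.42 for Dbp and 0.70 for Per3. The fold changes of these genes by themselves were 0.63, 0.47 and 0.74. For Ciart the same difference overlapped, with means of 0.92 ± 0.19 with leptin and 0.78 ± 0.19 with GFP alone (SD, n = 3 each). Set against Npas2 instead, all 4 outputs overlapped between the groups, with mean differences between groups of 0.0019 for Dbp, 0.16 for Nr1d1, 0.28 for Per3 and -0.28 for Ciart. Single libraries moved these values. Omitting AAV-Leptin-GFP replicate 3 took the difference between groups to -0.21 for Dbp minus Npas2 and to 0.06 for Per3 minus Npas2, while omitting replicate 2 of the same group took them to 0.15 and 0.48. For Nr1d1 minus Npas2 the lowest value, -0.0050, came with AAV-GFP replicate 1 omitted and the highest, 0.29, with replicate 2 of that group omitted. Ciart minus Npas2 stayed below 0, between -0.36 (AAV-Leptin-GFP replicate 3 omitted) and -0.15 (replicate 2 of that group omitted). Against Arntl, leaving out 1 library gave 0.49 to 0.62 for Nr1d1, 0.31 to 0.48 for Dbp and 0.57 to 0.81 for Per3. No p is given for these differences, which combine members chosen with results of these data known.

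**Figure D3:**
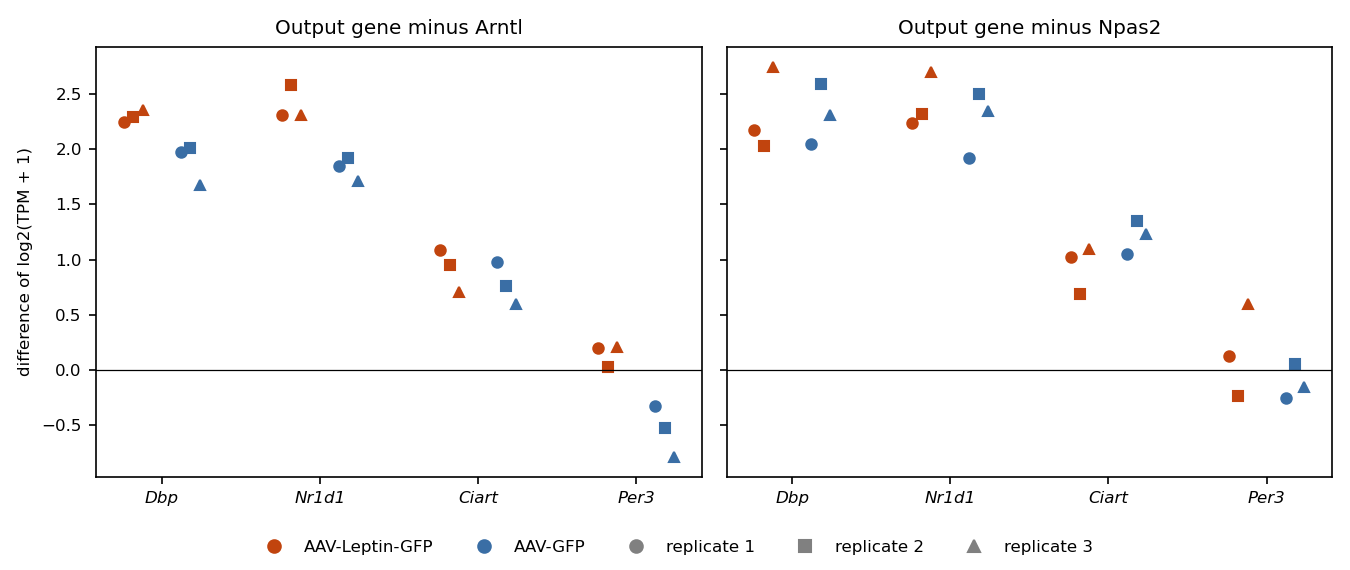
Difference of log2(TPM + 1) between a clock output gene (horizontal axis) and Arntl (left) or Npas2 (right) in each library, AAV-Leptin-GFP in orange and AAV-GFP in blue, with symbols for the replicate number. Dbp, Nr1d1 and Per3 separate the groups against Arntl, and none of the 4 outputs does so against Npas2.

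Among 22 other clock components, 20 were tested, 1 was called higher and none lower, with a median log2 fold change of 0.05. Over all tested genes 1.54% were called higher and 0.0662% lower. The called gene was Bhlhe40, also known as Dec1, an E-box repressor. It stood at 31.2, 45.2 and 36.5 TPM in the AAV-Leptin-GFP libraries, against 17.5, 15.6 and 17.1 TPM in the AAV-GFP libraries (log2 fold change 1.11, SE 0.13, limma adjusted p = 0.0194). Without AAV-Leptin-GFP replicate 2 or 3 or AAV-GFP replicate 2 or 3, its limma adjusted p was 0.0630, 0.0762, 0.111 and 0.131. Its paralog Bhlhe41 (Dec2) was at 25.6, 18.7 and 20.7 TPM with leptin and 22.4, 20.0 and 19.6 TPM with GFP alone, and its groups overlapped (0.06, limma adjusted p = 0.834). Tef, a D-box activator like Dbp, was at 51.4, 51.7 and 53.6 TPM with leptin, against 46.5, 44.2 and 43.0 TPM with GFP alone (0.23, SE 0.05, limma adjusted p = 0.0800). Hlf, the other activator of that family, was under the filter, at 0.901, 0.819 and 1.55 TPM with leptin, against 0.604, 0.432 and 0.682 TPM with GFP alone. The casein kinase genes Csnk1d and Csnk1e, which set the stability of PER proteins, had log2 fold changes of 0.0080 and 0.13 and were not called. Bhlhe41, Tef, Hlf, Csnk1d and Csnk1e were singled out for their roles after their values were seen.

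A further 3 lists hold rhythmic outputs outside the core clock, glucocorticoid-induced genes and genes induced through CREB or serum response. Of 10 rhythmic outputs outside the core clock, 9 were tested and none was called by limma, with 0 higher and 1 lower at an unadjusted p under 0.05 and a median log2 fold change of -0.0068. The one with the smallest p was Leo1, a subunit of an RNA polymerase II elongation complex, at 22.8, 24.1 and 22.3 TPM with leptin, against 26.6, 26.4 and 27.1 TPM with GFP alone (-0.20, limma adjusted p = 0.119). Of 15 glucocorticoid-induced genes, 1 was called higher, against 1.54% of all tested genes, and the median was 0.09. That gene was Dusp1, a MAP kinase phosphatase that activity also induces, at 54.5, 66.2 and 60.5 TPM with leptin, against 39.3, 33.8 and 37.8 TPM with GFP alone (0.69, SE 0.09, limma adjusted p = 0.0229). At an unadjusted limma p under 0.05, 4 of this list were higher (Dusp1, Mt1, Zbtb16 and Sgk1) and 1 was lower (Ddit4), each without overlap between the groups. Of all tested genes, 11.3% were higher and 8.19% lower at that threshold. Groups did not overlap for 13.3% with leptin above and for 11.9% with leptin below. The log2 fold changes were 0.43 for the metallothionein gene Mt1, 0.51 for the transcription factor gene Zbtb16, 0.25 for the kinase gene Sgk1 and -0.19 for Ddit4, an inhibitor of mTORC1 signalling, with limma adjusted p of 0.111, 0.203, 0.196 and 0.160. Tsc22d3, Fkbp5 and Klf9 of the same list, named like these 4 after their values were seen, had overlapping groups, at -0.02, 0.05 and -0.07. Of 15 genes induced through CREB or serum response, 13 were tested and 9 were called higher, against 1.54% of all tested genes. These were Fos, Fosb, Junb, Egr1, Nr4a1, Nr4a2, Dusp1, Arc and Ier2, and the median of the list was 0.87. The list was chosen with earlier results of these data known, so its count is a description. Leaving out AAV-Leptin-GFP replicate 1, 2 or 3 gave 0, 3 and 2 calls in this list, and leaving out AAV-GFP replicate 1, 2 or 3 gave 8, 0 and 0. In the glucocorticoid list these fits gave 0 calls, except 3 without AAV-GFP replicate 1. Fos, for example, was at 324, 437 and 301 TPM with leptin, against 139, 132 and 128 TPM with GFP alone.

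At the level of transcripts, most members were carried by 1 protein-coding form. Of 18 transcripts with a mean of at least 1 TPM, none had a share of its gene that differed past an exact permutation test, which with 3 against 3 libraries cannot go below 0.1 (Benjamini-Hochberg adjusted p = 0.36 or more over the 18). The 2721 nt coding transcript of Nr1d1 was at 17.1, 19.4 and 15.6 TPM with leptin, against 12.5, 11.8 and 11.8 TPM with GFP alone. A 781 nt processed transcript of the same gene held 12.4% ± 4.06 of its TPM with leptin and 3.59% ± 1.76 with GFP alone (SD, n = 3 each, exact two-sided permutation p = 0.1). The main coding transcript of Dbp (1837 nt) was at 14.4, 15.9 and 16.3 TPM with leptin, against 13.4, 10.9 and 10.5 TPM with GFP alone, so that its groups still did not overlap. The main coding transcript of Nr1d2 (4663 nt) did overlap, at 27.5, 28.3 and 30.2 TPM with leptin and 23.5, 26.3 and 27.9 TPM with GFP alone. Retained-intron forms of Nr1d2 averaged 9.06% of the gene with leptin and 4.33% with GFP alone. The 1680 nt form among them overlapped between the groups. It held 5.77%, 7.13% and 1.92% with leptin and 2.32%, 0.84% and 2.30% with GFP alone (exact two-sided permutation p = 0.3). The 3507 nt transcript of Per1 held 23.8% ± 4.62 of that gene with leptin and 13.0% ± 3.50 with GFP alone (exact two-sided permutation p = 0.1). In Clock, where the sums of the groups overlapped, the 5508 nt coding transcript held 12.6% ± 1.59 with leptin and 7.06% ± 1.24 with GFP alone (exact two-sided permutation p = 0.1). Reads that transcripts share are divided by estimate, which makes these shares less certain than the sums. In Per1 one 4636 nt form was listed at 0 in all libraries but AAV-GFP replicates 2 and 3, where it stood at 5.88 and 1.76 TPM. As measures of whole libraries, retained-intron transcripts took 3.60%, 3.75% and 3.24% of all TPM with leptin, against 2.50%, 2.10% and 2.27% with GFP alone. Mitochondrially encoded genes took 7.74%, 7.35% and 9.15% of TPM with leptin, against 6.13%, 5.84% and 5.66% with GFP alone. Transcripts above 0 numbered 64423, 64087 and 61474 with leptin, against 60572, 55476 and 55954 with GFP alone, so that all 3 measures separated the groups in the same direction as the called clock genes. With the mitochondrially encoded genes removed and the rest rescaled, both members stayed called, at limma adjusted p = 0.0179 for Nr1d1 and 0.0368 for Dbp. That rescaling moved the median log2 fold change of all tested genes from -0.00016 to 0.032. It changes only the scale, so it cannot show what part a difference between libraries plays. The part of the 3 library measures in these results was not tested. With protein-coding transcripts only, Nr1d1 stayed called (0.53, limma adjusted p = 0.0491) and Dbp kept its fold change of 0.47 without its call (limma adjusted p = 0.0794).

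The 12 sensory neuron markers summed to 25005 to 25652 TPM with leptin and 26244 to 27339 TPM with GFP alone, with the defining markers Avil and Rbfox3 between 215 and 573 TPM in every library. Sums were 7313 to 8022 and 8147 to 9305 TPM for 8 satellite glia markers, 846 to 927 and 962 to 997 TPM for 8 Schwann cell markers, and 66.2 to 74.3 and 78.4 to 81.0 TPM for 8 endothelial markers, with leptin and with GFP alone in that order. Fabp7 and Apoe in the satellite glia list and Egfl7 in the endothelial list were lower with leptin without overlap. The sum of all others in each list overlapped between the groups. Because the markers set apart were picked by these same values, that overlap was favoured in advance and does not show where the separation came from. The 6 other satellite glia markers summed to 826 to 862 TPM with leptin and 784 to 867 TPM with GFP alone, and the 7 other endothelial markers to 12.4 to 19.1 and 11.8 to 17.6 TPM. The median log2 fold change was -0.07 over the satellite glia list, with 3 of 8 above 0, and 0.10 over the 7 tested endothelial markers, with 4 above 0. The 10 macrophage markers summed to 81.2 to 87.7 and 73.7 to 97.1 TPM, and the 8 fibroblast markers to 65.5 to 93.6 and 64.3 to 78.8 TPM, in the same order. No marker of these lists was at 0 in any library, and of all of them Egr2, an activity-induced gene, was the 1 called. Erythroid markers summed to 241, 375 and 1727 TPM with leptin, the last in replicate 3, against 257, 171 and 172 TPM in the AAV-GFP libraries. Without AAV-Leptin-GFP replicate 3 the log2 fold change was 0.66 for Nr1d1 and 0.43 for Dbp. The part of the other marker sums in these results was not tested.

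The genes closest in pattern to the 2 called members were found as the smallest root mean square difference of centred log2(TPM + 1) over the 6 libraries, among all tested genes. For Nr1d1 they were Rbm28 (0.045), 1700029J07Rik (0.049) and Adam11 (0.051), with log2 fold changes of 0.63, 0.60 and 0.59. For Dbp they were 9430041J12Rik (0.032), Isg20 (0.033) and Ccdc130 (0.042), with log2 fold changes of 0.50, 0.42 and 0.50. No clock gene was among these 6.

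**Figure D4:**
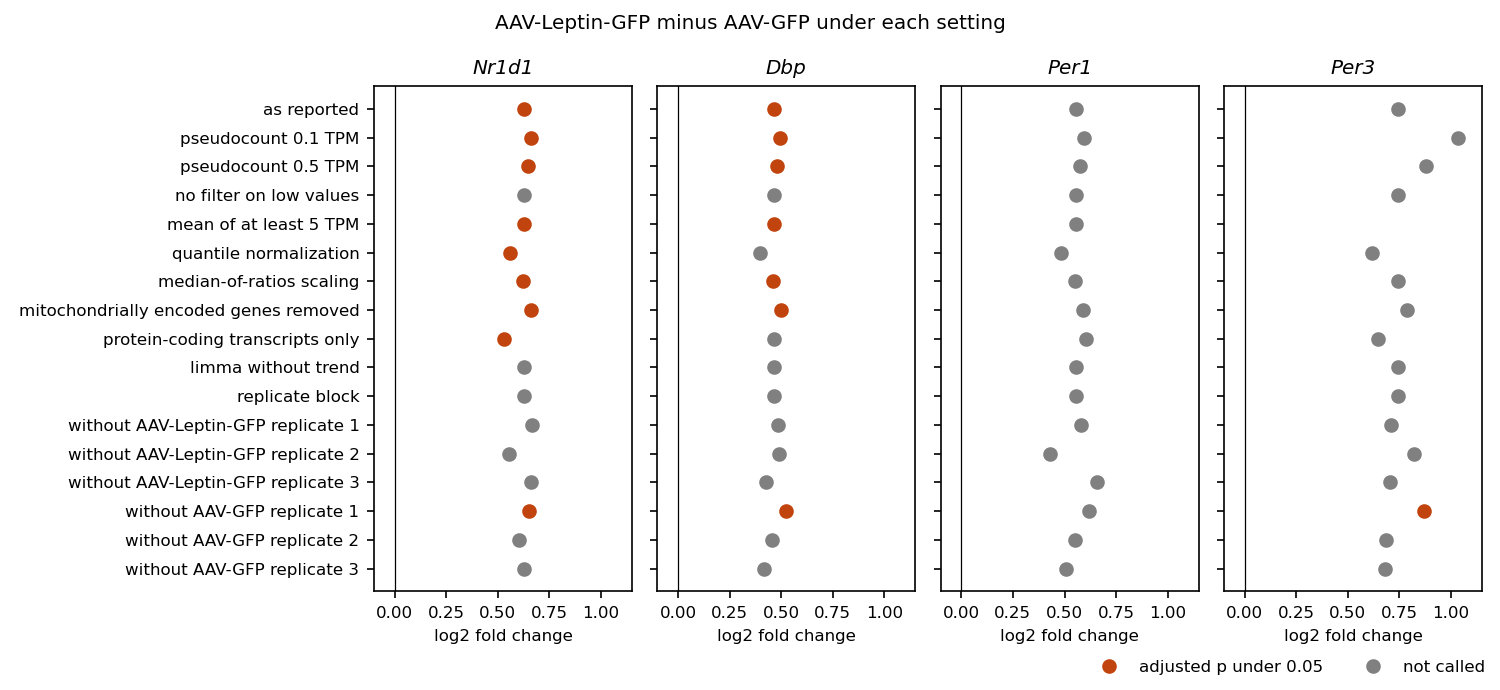
Log2 fold change, AAV-Leptin-GFP minus AAV-GFP (horizontal axis), of Nr1d1, Dbp, Per1 and Per3 as reported and under each alternative (rows), with settings at an adjusted p under 0.05 in orange. Values stay above 0 throughout, between 0.53 and 0.66 for Nr1d1 and between 0.40 and 0.52 for Dbp, while the call comes and goes. Per3 has no point at a mean of 5 TPM, where it is filtered out.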

How the data were processed

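Neuron-enriched DRG RNA was sequenced from 3 AAV-Leptin-GFP and 3 AAV-GFP libraries, grouped by the treatment label. The authors deposited TPM per Ensembl transcript, summing to 1000000 in each library. Per the submitters' processing notes, the tools were Salmon 1.6.0, DESeq2 1.34.0, Trim Galore 0.6.6 and FastQC 0.11.9, on GRCm38 (mm10), without roles or order. TPM keeps no read number, so depth and counting error are unknown. Of 140789 transcript identifiers, 97.4% occur in GENCODE M21, which gave coordinates and transcript classes. The same version suffix holds for 37, so the authors used another release.

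TPM were summed by gene identifier, filtered at a mean of 1 TPM over all 6 libraries, and tested in R 4.3.3 with limma 3.58.1 on the log2(TPM + 1) scale (mean-variance trend, no covariates, two-sided). Further software was Python 3.11.15, pandas 2.3.3, numpy 2.4.6 and matplotlib 3.10.9. On simulated data for 15108 genes the test recovered 85 of 100 genes shifted by 1 on the log2 scale and 95 of 100 shifted by 2, with 11 false calls. The largest fold change of any member was 0.74, so these rates do not cover changes as small as those of the members. Named genes were all members, every called gene of each further list or else its smallest p, Arntl, Npas2 and Nfil3, and the 3 genes closest in pattern to each called member, plus genes said to be singled out. Some genes are not reported here. The members and lists were chosen with earlier results of these data known. Alternatives changed the pseudocount (0.1, 0.5), the filter (none, 5 TPM), the scaling (quantile, median of ratios, mitochondrially encoded genes removed), the transcripts, the trend, a block and the libraries.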

Additional observations from a re-analysis of the deposited data

How the results depend on the processing

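Over 16 alternatives Nr1d1, Dbp, Per1 and Nr1d2 (and over 15 Per2 and Per3) stayed above 0 with an unadjusted limma p under 0.05 each time, while Nr1d1 was called in 8, Dbp in 6, Per3 in 1 and Per1, Per2 and Nr1d2 in 0. Limma adjusted p ranged from 0.0156 to 0.137 for Nr1d1 and from 0.0345 to 0.183 for Dbp.

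The number of clock genes called higher was 2 as reported, 1 under quantile normalization and with protein-coding transcripts only, and 0 with no filter, without the mean-variance trend and with the replicate block. Leaving out 1 library gave 0 to 3. With no filter, 4 genes of the table were higher and 0 lower, against 233 and 10. These counts were 88 and 3 with protein-coding transcripts only, 35 and 0 without the trend, 74 and 0 with the replicate block, and 3 to 409 and 0 to 11 without 1 library. Lower genes numbered 27 at a mean of 5 TPM, 26 under median-of-ratios scaling and 3 without mitochondrially encoded genes. The other clock components and the glucocorticoid list had 0 called with no filter, without the trend and with the block, and 0 to 1 and 0 to 3 without 1 library. The CREB and serum list had 9 as reported, 0 with no filter, 4 without the trend and 0 to 8 without 1 library (lowest without AAV-Leptin-GFP replicate 1, AAV-GFP replicate 2 or AAV-GFP replicate 3). The cause was not tested.

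Signs turned for genes near 0. Under quantile normalization Cry1 was at -0.10, Clock at -0.023 and Arntl at -0.083, and with protein-coding transcripts only Arntl was at -0.050. Without 1 library Cry1 ranged from -0.043 to 0.099, Clock from -0.00037 to 0.062 and Arntl from -0.021 to 0.11. With a pseudocount of 0.1 TPM the difference between groups in Per3 minus Arntl was 0.97, against 0.70.

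The labels do not say whether same-numbered libraries were collected together, and correlations among so few libraries cannot settle it. Deviations from the group means correlated at 0.034, -0.070 and -0.024 for same-numbered libraries, across genes, and not every library correlated best with its own number. With the replicate block the CREB and serum list had 6 called, and the limma adjusted p was 0.0657 for Nr1d1, 0.0909 for Dbp and 0.0514 for Bhlhe40. With depth unknown, no counting error can be given for low genes such as Hlf, Per2, Per3, Arntl and Npas2, whose values were under 4 TPM.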
